A study of Homo sapiens with 12 samples.

Results

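The average effect of the S371A and S55A forms of PHGDH is, for each gene, the mean of S371A minus WT-1 and S55A minus WT-2. A gene can stand out in it through both mutants or through 1 of them, and a stricter test of both mutants is given beside it. Each mutant was set against the wild-type group of its own experiment, so a difference between the experiments does not enter the average. All 12 libraries of the series take part, joined by gene identifier: 3 of S371A and 3 of WT-1 in experiment 1, and 3 of S55A and 3 of WT-2 in experiment 2. The question is what the transcripts of these cells do when PHGDH carries either substitution, whichever serine was replaced by alanine.

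The cells are SW1990, a human line from a spleen metastasis of a pancreatic adenocarcinoma. Per the labels, every group stood in DMEM with 10% FBS and without glucose for 24 h before RNA was taken. S371A and S55A cells carried the mutant forms of what the labels call rPHGDH, and WT-1 and WT-2 cells its wild-type form. The labels do not say how the forms were expressed, whether the cells' own PHGDH had been removed, or whether a group was 1 clone. Nothing in them names separate cultures, so the spread behind the p-values is that of the libraries and may be technical. No library from cells with glucose enters the comparisons.

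Total counts ranged from 13667033 to 19240270 per library, and 3 counts corresponded to between 0.156 and 0.22 CPM (counts scaled to a common library size), which covers counting error only. Across genes, libraries of 1 group correlated with a Spearman coefficient of 0.988 to 0.992, a mutant and a wild-type library of 1 experiment with 0.98 to 0.984, and libraries of different experiments with 0.953 to 0.963. Libraries of different experiments were thus less alike than mutant and wild type within either. Of 19 marker genes of ductal pancreatic carcinoma, 18 were tested. All 19 together summed to 6437 to 7350 CPM in S371A, against 5704 to 6182 CPM in WT-1, and to 5519 to 5796 CPM in S55A, against 4027 to 4233 CPM in WT-2. KRT8 and KRT18 made up the largest parts of these sums. KRT7, MUC1, CEACAM5, CEACAM6, TFF1 and CLDN18 averaged 4.21 CPM or less in every group. Of 17 leukocyte markers 3 were tested. All 17 together summed to 13.7 to 17.5 CPM in S371A, against 11.9 to 13.9 CPM in WT-1, and to 11.3 to 15.4 CPM in S55A, against 11.6 to 15.5 CPM in WT-2, and CD3E, CD3D and CD2 were at 0 in every library.

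PHGDH makes the first step of serine synthesis, drawing a phosphoglycerate out of glycolysis, and the serine feeds the one-carbon units used for nucleotides and methylation. Cells without glucose have little of that substrate and turn on the stress programmes of the endoplasmic reticulum and of ATF4, the transcription factor of amino acid shortage. Interferon-response genes are the antiviral programme of vertebrate cells. They are switched on through a short promoter element, the interferon-stimulated response element, which is read by proteins of the IRF family. AP-1, the dimer of JUN and FOS proteins, is the classical transcription factor of growth factor and stress signalling.

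The interferon element is shown in the promoters of IFIT1, IFIT3 and ISG15, because these antiviral genes are among the rises found in both mutants and carry it close to the start. The stretches are the 250 bases before the start of each gene, from RefSeq on GRCh38.p14. They are IFIT1 at chr10:89392373-89392622 on the plus strand, IFIT3 at chr10:89327747-89327996 on the plus strand and ISG15 at chr1:1013247-1013496 on the plus strand. Capitals mark matches to GAAANNGAAA on either strand, and in IFIT1 and IFIT3 the element runs on the opposite strand. In ISG15 the 2 matches overlap.
IFIT1: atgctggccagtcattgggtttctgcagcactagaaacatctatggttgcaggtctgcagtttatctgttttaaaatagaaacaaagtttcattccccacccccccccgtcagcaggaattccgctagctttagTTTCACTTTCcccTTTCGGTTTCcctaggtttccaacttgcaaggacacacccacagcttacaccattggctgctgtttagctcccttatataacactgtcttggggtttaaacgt
IFIT3: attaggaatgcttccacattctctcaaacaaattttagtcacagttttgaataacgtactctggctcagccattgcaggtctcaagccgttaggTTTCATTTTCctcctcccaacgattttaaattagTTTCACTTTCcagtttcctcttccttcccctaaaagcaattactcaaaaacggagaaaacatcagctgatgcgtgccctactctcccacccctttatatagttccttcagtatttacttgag
ISG15: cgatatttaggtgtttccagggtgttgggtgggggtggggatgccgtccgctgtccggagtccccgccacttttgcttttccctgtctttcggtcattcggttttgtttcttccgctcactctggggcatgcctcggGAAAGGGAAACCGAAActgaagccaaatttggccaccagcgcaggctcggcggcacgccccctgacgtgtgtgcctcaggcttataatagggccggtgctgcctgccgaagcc

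PHGDH itself was lower in both mutants. The tables place it on chromosome 1 (GRCh38), at 119648411 to 119744226 in experiment 1 and 119659798 to 119744215 in experiment 2. In experiment 1 it stood at 194, 179.8 and 219 CPM in S371A, against 459.5, 484 and 445 CPM in WT-1. In experiment 2 it stood at 372, 367 and 354 CPM in S55A, against 753, 721 and 749 CPM in WT-2. In neither experiment did a mutant library reach a wild-type one, and the level of S55A lay near that of WT-1. The average log2 fold change was -1.13 ± 0.05 (SE; edgeR quasi-likelihood test over the 12 libraries, Benjamini-Hochberg adjusted p = 5.69e-08), with -1.23 in S371A and -1.02 in S55A. PHGDH was the called gene with the smallest p among the falls found in both mutants. The counts do not tell the mutant form, the wild-type form and the cells' own transcript apart. Less PHGDH transcript per cell and fewer cells with it cannot be told apart in bulk RNA.

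In the average effect 3516 of 16666 tested genes were called (21.1%), 1944 of them higher (11.7% of tested genes) and 1572 lower (9.43%). Called means a Benjamini-Hochberg adjusted p under 0.05 in edgeR. The average can be carried by either mutant. Of the 3516 genes, 600 were also called in each mutant in the same direction (399 higher, 201 lower), 1721 in S55A only, 658 in S371A only and 537 in neither alone. The mutant effects had the same sign for 3128 (89%) and opposite signs for 388 (11%), and the difference between them was itself called for 898 (25.5%; 2087 or 12.5% of all tested genes). The effect of S55A was the larger in size for 2274 (64.7%). S371A was read in experiment 1 alone and S55A in experiment 2 alone, and mutant and experiment cannot be told apart where their effects differ. Without WT-1 replicate 1 or 3, 598 or 578 called genes had differing effects. The 600 shared genes were 32.1% of the 1868 genes called in S371A (11.2% of tested genes; 6.48% higher, 4.73% lower) and 16.6% of the 3611 called in S55A (21.7%), while 195 genes were called in opposite directions.

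A stricter count took for each gene the larger of its 2 single-mutant p-values, and 1 where the signs differed, and adjusted it over all tested genes. By this test of both mutants 253 genes were called (1.52%), 187 higher (1.12%) and 66 lower (0.396%). The count was 108 to 164 when any 1 of 10 libraries was left out, all but S55A replicate 3 and WT-2 replicate 2. DESeq2 called 392 genes in both mutants, and on FPKM 112 were higher. All 253 were also called in the average effect, and for all of them the libraries of mutant and wild type did not overlap in either experiment, as was the case in the same direction for 10.6% of all tested genes (6.28% with the mutants higher, 4.34% with the mutants lower). Selection by both single p-values makes either outcome likely, so neither is further evidence for the 253. S55A had the larger effect in 156 of the 253 and S371A in 97, and the mutant effects differed for 58 (beside 12.5% of all tested genes). Across all 16666 genes the effects correlated weakly, with a Pearson r of 0.132 and a Spearman rho of 0.155, and 55.8% had the same sign. These are descriptions across genes, which are not independent replicates and differ in level. Among the 8416 genes that averaged 20 CPM or more, r was 0.171.

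**Figure D1:**
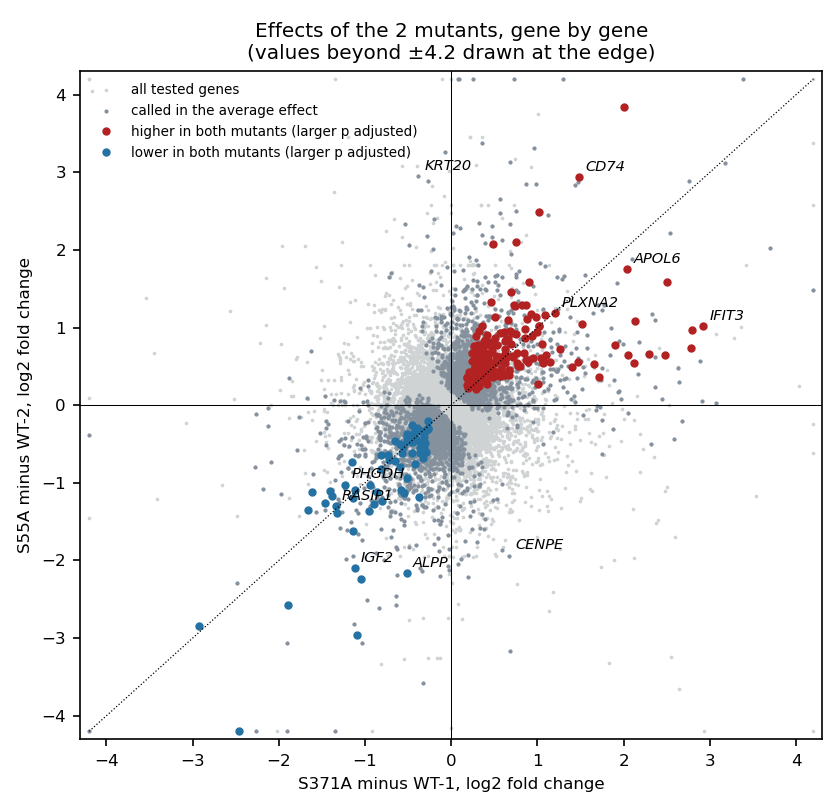
The log2 fold change of S371A minus WT-1 (horizontal) against that of S55A minus WT-2 (vertical) for each tested gene, with all tested genes in light grey, genes called in the average effect in dark grey and those called by the test of both mutants in red (187 higher) and blue (66 lower). PHGDH and RASIP1 lie near the dotted diagonal of equal effects, IFIT3 and CD74 lie to either side of it, and KRT20 and CENPE have opposite signs in the mutants.

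Of the 12 largest rises among genes whose libraries did not overlap in either experiment, 6 belong to the interferon list. CD74, the invariant chain of MHC class II, led at 2.21 ± 0.13 on average (edgeR adjusted p = 1.06e-06). It stood at 11.2, 11.7 and 13.0 CPM in S371A, against 4.49, 3.67 and 4.66 CPM in WT-1. In experiment 2 CD74 stood at 10.8, 10.4 and 8.19 CPM in S55A, against 1.66, 0.888 and 1.21 CPM in WT-2. The 2 mutants reached like levels from wild types that lay apart. APOL6, an interferon-inducible member of the apolipoprotein L family, rose by 1.90 ± 0.08, and at 2.04 in S371A and 1.75 in S55A its mutant effects were not shown to differ (edgeR adjusted p = 0.255). It stood at 49.5, 56.6 and 56.2 CPM in S371A, against 14, 13.2 and 12.2 CPM in WT-1. In experiment 2 APOL6 stood at 8.79, 10.5 and 10.5 CPM in S55A, against 2.87, 3.26 and 2.72 CPM in WT-2. Every S371A library was therefore above every S55A library, and the wild types differed in the same way.

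TM4SF1, a tetraspanin-like surface protein of carcinomas, rose by 1.61 ± 0.12 (2.13 in S371A and 1.09 in S55A; edgeR adjusted p = 4.56e-06). OLR1, a receptor for oxidised low-density lipoprotein, rose by 1.49 ± 0.12 (2.36 in S371A and 0.62 in S55A). CLIC5, a chloride channel protein of the cell cortex, rose by 1.75 ± 0.12 (1.02 in S371A and 2.49 in S55A), and LURAP1L by 1.43 ± 0.10 (0.75 in S371A and 2.11 in S55A). The order of the mutants was not shared: TM4SF1 and OLR1 changed more in S371A, CLIC5 and LURAP1L more in S55A, and all 4 differences were called in edgeR. RSAD2 and OLR1 passed the test in each mutant alone but not the stricter test of both (edgeR adjusted p = 0.201 and 0.13).

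Whereas the mutant effects differed for 11 of the 12 largest rises, a difference was called for only 2 of the 12 largest falls, IGF2 and ALPP (edgeR; 12.5% of all tested genes). IZUMO1, a sperm surface protein needed for fusion with the egg, stood at 6.64, 6.78 and 5.95 CPM in S371A, against 14.8, 16.4 and 17.2 CPM in WT-1. In experiment 2 IZUMO1 stood at 5.88, 6.13 and 8.61 CPM in S55A, against 18.8, 17.5 and 17.5 CPM in WT-2. Mutant and wild-type libraries were far apart in both experiments, and the average change was -1.35 ± 0.10 (edgeR adjusted p = 4.16e-06; -1.32 in S371A and -1.38 in S55A). RASIP1, a RAS-interacting protein of vessel and junction formation, stood at 11.9, 10.9 and 10.2 CPM in S371A, against 26.7, 27.3 and 29.6 CPM in WT-1. In experiment 2 RASIP1 stood at 9.19, 9.25 and 14.4 CPM in S55A, against 28.9, 27.4 and 24.7 CPM in WT-2. The third S55A library lay above the other 2 but below every WT-2 library, and the average change was -1.32 ± 0.11 (-1.34 in S371A and -1.30 in S55A).

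IGF2, the insulin-like growth factor of fetal and tumour growth, had the largest fall, at -1.61 ± 0.11 (edgeR adjusted p = 3.7e-06). It stood at 6.78, 5.75 and 5.89 CPM in S371A, against 13.5, 12.8 and 13.6 CPM in WT-1. In experiment 2 IGF2 stood at 1.37, 2.34 and 2.01 CPM in S55A, against 9.07, 7.18 and 8.29 CPM in WT-2. Its fall was larger in S55A, and its transcript shares sequence with another gene model. TNNI2, fast skeletal troponin I, changed by -1.26 ± 0.10 (-1.40 in S371A and -1.11 in S55A), and SPTBN5, a spectrin, by -1.17 ± 0.11 (-1.15 in S371A and -1.19 in S55A). ALPP, placental alkaline phosphatase, changed by -1.34 ± 0.07, most of it in S55A (-0.51 in S371A and -2.17 in S55A), and its reads could be split with the near copy ALPG. LTB4R, a leukotriene receptor, changed by -0.92 ± 0.14 (-0.79 in S371A and -1.06 in S55A).

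The other 4 of the 12 falls were antisense RNAs, MCM3AP-AS1 (-1.16 ± 0.10), CCDC18-AS1 (-1.08 ± 0.09), IGFL2-AS1 (-0.99 ± 0.16) and GAS6-AS1 (-0.94 ± 0.10). Without strand, which the sources used here do not give, reads in exons opposite another gene cannot be told apart. Such exonic bases were 19% for MCM3AP-AS1, 5.87% for GAS6-AS1, 4.39% for CCDC18-AS1 and 0% for IGFL2-AS1. CCDC18 itself changed by -0.48 ± 0.07 (0.15 in S371A and -1.11 in S55A). It has 13.3% of its exonic bases opposite other genes, most of them opposite TMED5.

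**Figure D2:**
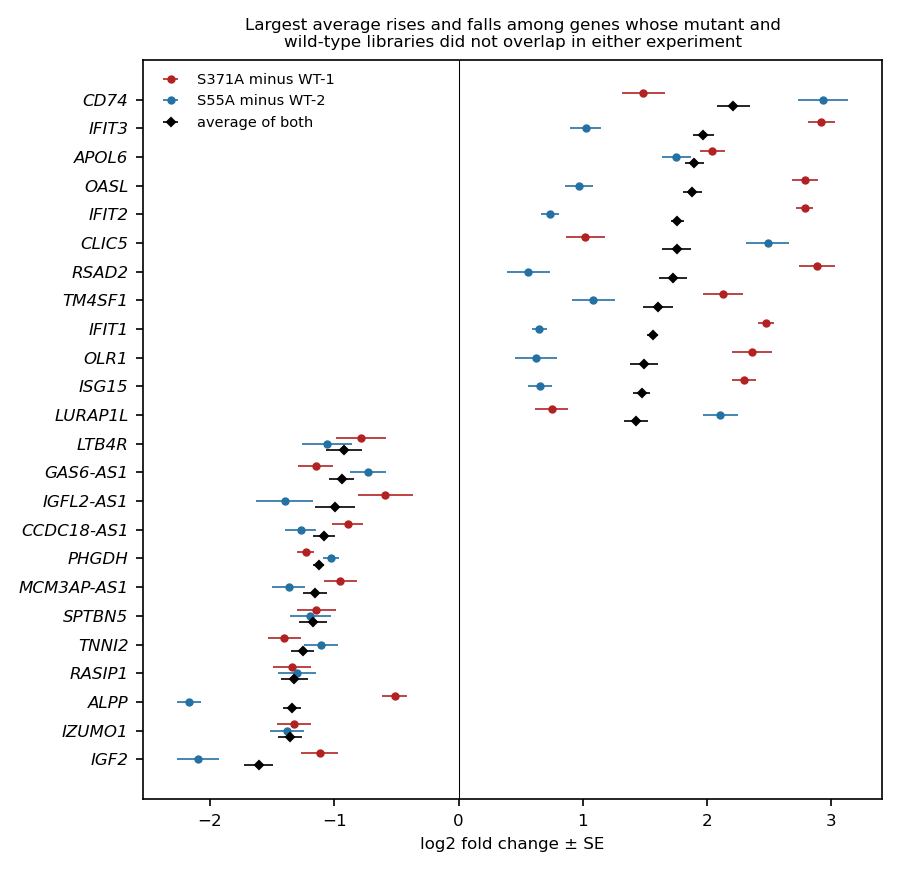
Average log2 fold change (black diamonds) of the 12 largest rises and 12 largest falls, with S371A minus WT-1 in red and S55A minus WT-2 in blue and bars of ± 1 SE. IFIT2 and RSAD2 lie to the right in red and below 1 in blue, while the red and blue points of IZUMO1, RASIP1 and SPTBN5 nearly coincide.

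The genes with the smallest larger p in both mutants are given next. PPP1R15A, also called GADD34, which returns the phosphatase to eIF2 alpha and so ends the stress block on translation, stood at 718, 722 and 782 CPM in S371A, against 486, 468 and 483 CPM in WT-1. In experiment 2 it stood at 714, 720.3 and 751 CPM in S55A, against 478, 450.2 and 458 CPM in WT-2. The 2 mutants were at like levels, as were the 2 wild types, and the average rise was 0.64 ± 0.03 (0.63 in S371A and 0.66 in S55A; edgeR test of both mutants, adjusted p = 0.000109). PLXNA2, a semaphorin receptor, stood at 39.5, 39.6 and 37.7 CPM in S371A, against 16.0, 18.2 and 16.7 CPM in WT-1. In experiment 2 PLXNA2 stood at 15, 14.7 and 13.3 CPM in S55A, against 6.66, 4.96 and 7.14 CPM in WT-2. The wild types lay apart, every mutant library was above those of its own wild type, and the fold changes were close (1.19 ± 0.08; 1.20 in S371A and 1.19 in S55A; edgeR test of both mutants, adjusted p = 0.00106). TINAGL1, a matricellular protein, rose by 0.82 ± 0.05 (0.71 in S371A and 0.93 in S55A), and OAS3, which makes the oligoadenylates that activate RNase L, by 0.53 ± 0.04 (0.51 in S371A and 0.54 in S55A).

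Among the falls by this test, PHGDH came first, followed by IZUMO1. SNHG26, the host transcript of a small nucleolar RNA, stood at 6.43, 7.08 and 6.33 CPM in S371A, against 11.4, 12.5 and 11 CPM in WT-1. In experiment 2 it stood at 6.79, 6.58 and 6.81 CPM in S55A, against 11.7, 12.4 and 11.7 CPM in WT-2. Its levels were alike across experiments, and the average change was -0.82 ± 0.07 (edgeR test of both mutants, adjusted p = 0.00182). NT5DC2, a protein with a nucleotidase domain, changed by -0.59 ± 0.05 (-0.57 in S371A and -0.62 in S55A). For PHGDH, IZUMO1, RASIP1, TNNI2, SNHG26 and NT5DC2 the mutant effects were not shown to differ, with an edgeR adjusted p between 0.185 and 0.978.

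**Figure D3:**
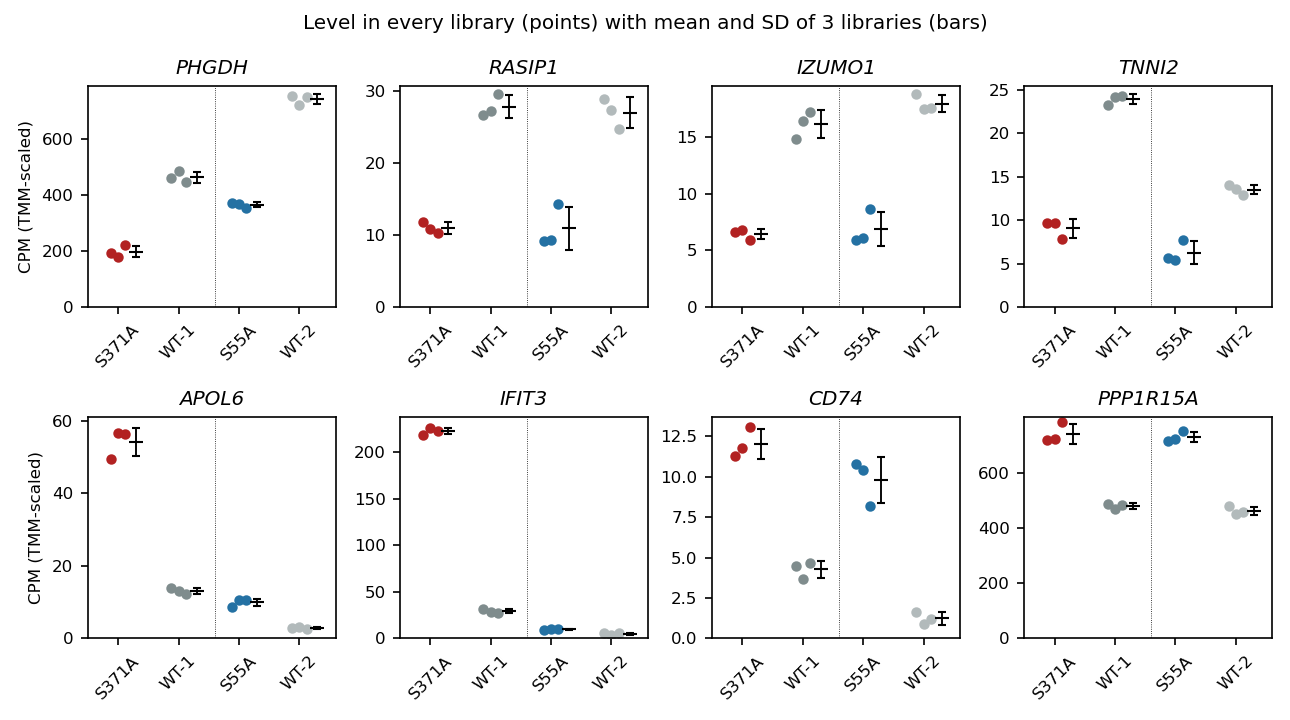
CPM on TMM-scaled library sizes in each of the 12 libraries (points), with the mean and SD of each group of 3, for 4 genes that fell (top row) and 4 that rose (bottom row). In every panel the mutant points lie apart from those of their own wild type, and the 2 wild types differ most in proportion for IFIT3.

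Most of the interferon-response genes rose in the average effect. Of 55 tested members 36 rose and 0 fell, beside 11.7% and 9.43% of all tested genes, and the median average change was 0.44, against -0.0068 over all genes. Singly, 24 rose in S371A (beside 6.48% of all tested genes) and 32 in S55A (beside 11.5%), and 14 passed the test of both mutants. The list summed to 4913, 4951 and 4956 CPM in S371A, against 2397, 2364 and 2381 CPM in WT-1. In experiment 2 it summed to 1649, 1641 and 1599 CPM in S55A, against 1357, 1396 and 1355 CPM in WT-2. The sums did not overlap in either experiment. The 8 members with the largest average all had the larger change in S371A. The difference between the mutants was called for 19 of the 55 (beside 12.5% of all tested genes). The list was chosen with earlier results of these data known, so its count is no independent evidence. Counts of the other lists in the average effect are to be read beside the same 11.7% and 9.43% of all tested genes.

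IFIT3, a tetratricopeptide protein that stabilises IFIT1 on foreign RNA, stood at 219, 226 and 223 CPM in S371A, against 32.1, 28.4 and 27.7 CPM in WT-1. In experiment 2 IFIT3 stood at 9.42, 10.3 and 9.67 CPM in S55A, against 5.4, 3.55 and 5.38 CPM in WT-2. The average rise was 1.97 ± 0.08 (edgeR adjusted p = 5.69e-08), and the difference between the mutants, 2.92 against 1.02, was called (adjusted p = 3.59e-05). IFIT1, which binds RNA without a host cap, stood at 494, 517 and 530.3 CPM in S371A, against 97.4, 89.6 and 90.4 CPM in WT-1. In experiment 2 IFIT1 stood at 29.2, 27.8 and 30.8 CPM in S55A, against 17.7, 18.4 and 19.8 CPM in WT-2. The groups were apart in both experiments, and S55A stayed below WT-1. The average rise was 1.56 ± 0.04 (2.47 in S371A and 0.65 in S55A).

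Other effectors with a large rise changed more in S371A. IFIT2 rose by 1.76 ± 0.05 (2.78 in S371A and 0.74 in S55A), OASL by 1.88 ± 0.08 (2.79 in S371A and 0.97 in S55A), RSAD2, the antiviral enzyme viperin, by 1.72 ± 0.11 (2.89 in S371A and 0.56 in S55A) and ISG15, the ubiquitin-like modifier, by 1.48 ± 0.07 (2.30 in S371A and 0.66 in S55A). DDX60, a helicase that assists RNA sensing, rose by 1.33 ± 0.05 (2.11 in S371A and 0.55 in S55A). Of the RNA sensors, DDX58, which encodes RIG-I, rose by 1.04 ± 0.05 (1.71 in S371A and 0.36 in S55A) and IFIH1, which encodes MDA5, by 0.94 ± 0.06 (1.40 in S371A and 0.49 in S55A). IRF1, a transcription factor of the pathway, rose by 0.65 ± 0.07 (0.76 in S371A and 0.54 in S55A), and HERC6, a ligase of the HERC family, by 0.64 ± 0.06 (0.77 in S371A and 0.51 in S55A). Other members with a like rise changed about as much or more in S55A. EPSTI1 rose by 1.12 ± 0.12 (1.09 in S371A and 1.16 in S55A) and PSMB8, a subunit of the immunoproteasome, by 1.0 ± 0.12 (0.88 in S371A and 1.11 in S55A), and both passed the test of both mutants. Part of the exons of PSMB8 lies opposite another gene. BST2, the antiviral protein tetherin, rose by 0.95 ± 0.28 (0.39 in S371A and 1.5 in S55A) and did not pass it. Its call in the average effect was lost on log2(FPKM + 1) and when any 1 of 7 libraries was left out, all but S371A replicate 3, WT-1 replicate 2, S55A replicate 1 and 3 and WT-2 replicate 3. These 3 were named after their values were seen.

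**Figure D4:**
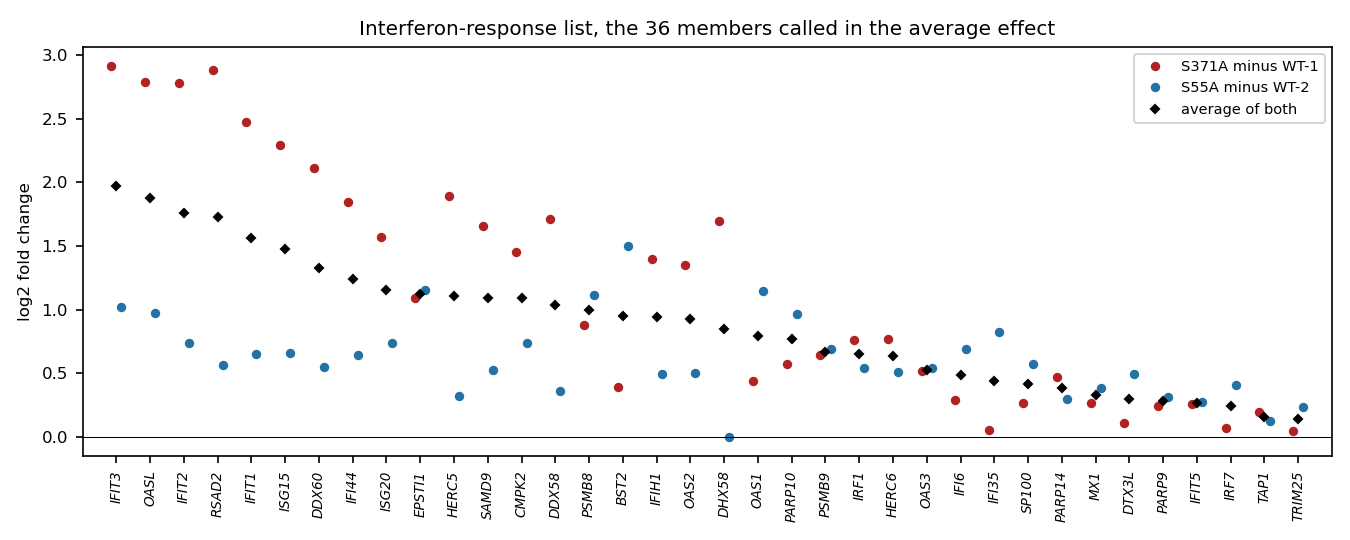
Log2 fold changes (vertical) of the 36 interferon genes called in the average effect, of 55 tested, ordered along the horizontal axis by the average effect (black diamonds), with S371A minus WT-1 in red and S55A minus WT-2 in blue. The 36 diamonds are all above 0, and the red points lie well above the blue ones for the members on the left.

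The interferon element was found in a larger share of promoters of genes that rose in both mutants than of all promoters. GAAANNGAAA occurred in 2.44% of the 10697 tested genes with a promoter in RefSeq, in 12 of 160 genes called higher by the test of both mutants (7.5%) and in 1 of 49 called lower (2.04%). Of the 12 genes, 8 belong to the interferon list, which has 11 such genes with a promoter. Outside the list 4 of 149 genes called higher held it (2.68%), a share near that of all promoters. Within the interferon list it occurred in 16 of 29 members that rose (55.2%) and in 7 of 14 that were not called (50%). The AP-1 element TGANTCA occurred in 4.03% of all these promoters, in 9 of 160 of the genes higher in both (5.62%) and in 0 of 49 of those lower in both. TTCNNNGAA, the gamma-activated sequence, was found in 5.46% of all, in 6.88% of the genes higher in both and in 4.08% of those lower. For TGACGTCA, the cAMP response element, the shares were 2.75%, 2.5% and 0%, and for the E2F element TTTCGCGC 0.813%, 0% and 2.04%. Both strands were searched, each motif was counted by itself, and matches of different motifs may overlap. These are counts of letters, with no test.

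Antigen presentation genes followed only in part. Of 20 tested members of the MHC list 5 rose and 2 fell (25% and 10%, beside 11.7% and 9.43% of all tested genes), led by CD74. The share of falls was near that of all genes. B2M, the light chain of MHC class I, rose by 0.54 ± 0.09 (0.79 in S371A and 0.30 in S55A; edgeR adjusted p = 0.00121) and HLA-B, a class I heavy chain, by 0.46 ± 0.05 (0.14 in S371A and 0.79 in S55A). The count of falls was 1 when any 1 of 9 libraries was left out, all but S371A replicate 1, S55A replicate 1 and WT-2 replicate 3.

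Many genes of growth factor and stress signalling rose in the average effect. Of 17 tested AP-1 subunits 8 rose and 0 fell (beside 11.7% and 9.43% of all tested genes), and 2 of them, JUN and JUNB, passed the test of both mutants. JUN stood at 82.3, 77.1 and 78.1 CPM in S371A, against 40.5, 40.3 and 37.8 CPM in WT-1. In experiment 2 JUN stood at 42.5, 44.0 and 43.9 CPM in S55A, against 36.4, 34.4 and 36.6 CPM in WT-2. Both experiments kept the groups apart, but the rise was larger in S371A (1.0 in S371A and 0.28 in S55A; difference called, edgeR adjusted p = 0.000199). JUNB rose by 0.66 ± 0.05 (0.54 in S371A and 0.78 in S55A) and carries part of its exons opposite another gene. MAFF, a small MAF partner of AP-1, rose by 1.22 ± 0.20 (0.75 in S371A and 1.68 in S55A), and FOSB by 1.01 ± 0.19 (1.225 in S371A and 0.79 in S55A). In the single tests MAFF was called in S55A only and FOSB in S371A only. Neither passed the test of both mutants (edgeR adjusted p = 0.348 and 0.33). The mutant and wild-type libraries of FOSB were not apart in both experiments.

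The immediate early and ERK feedback list had 18 of 35 tested members higher and 0 lower (beside 11.7% and 9.43% of all tested genes), with a median of 0.39. DUSP8, a phosphatase of stress-activated kinases, rose by 0.56 ± 0.05 (0.45 in S371A and 0.67 in S55A), and KLF10, a TGF beta inducible factor, by 0.45 ± 0.04 (0.28 in S371A and 0.62 in S55A). ZFP36, which removes AU-rich messages, rose by 0.61 ± 0.06 (0.88 in S371A and 0.34 in S55A). In the list of EGF receptors and ligands 6 of 12 rose and 0 fell in the average effect, beside the same shares of all tested genes. Singly, 7 rose and 0 fell in S371A (beside 6.48% and 4.73%), and 3 rose and 3 fell in S55A (beside 11.5% and 10.1%). The mutant effects differed for 5 of the 12 (beside 12.5% of all tested genes). The list sum was higher in S371A, at 1873 to 1923 against 1328 to 1385 CPM in WT-1. It was lower in S55A, at 1254 to 1458 against 1681 to 1755 CPM in WT-2. TGFA, a ligand of the EGF receptor, rose by 0.50 ± 0.06 (0.60 in S371A and 0.39 in S55A) and MET, the hepatocyte growth factor receptor, by 0.35 ± 0.05 (0.38 in S371A and 0.33 in S55A), both by the test of both mutants. EGFR was at 0.93 in S371A and 0.17 in S55A, a called difference (edgeR adjusted p = 0.00554).

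Of 29 tested NF-kB and cytokine genes 18 rose and 1 fell (beside 11.7% and 9.43% of all tested genes), with a median of 0.41. The 1 that fell was SOD2 (0.05 in S371A and -0.42 in S55A). The call of SOD2 was lost without S371A replicate 1 or 3, WT-1 replicate 2 or 3, S55A replicate 1 or WT-2 replicate 2 (edgeR adjusted p of 0.0537 to 0.0632). LIF, a cytokine related to the interleukins that signals through STAT proteins, stood at 74.3, 74.7 and 72.8 CPM in S371A, against 51.2, 52.6 and 55.6 CPM in WT-1. In experiment 2 LIF stood at 49.4, 49.4 and 53.7 CPM in S55A, against 34.6, 26.6 and 31.6 CPM in WT-2. Mutant and wild-type libraries did not overlap in either experiment, and the average rise was 0.60 ± 0.06 (0.48 in S371A and 0.72 in S55A; edgeR test of both mutants, adjusted p = 0.0156). CXCL11, an interferon-inducible chemokine, rose by 2.04 ± 0.19 (2.50 in S371A and 1.58 in S55A), but in experiment 2 it was near the limit of counting at 0.913, 0.557 and 0.475 CPM in S55A, against 0.230, 0.148 and 0.242 CPM in WT-2. NOS2, which makes nitric oxide, changed in S371A only in the single tests (2.05 in S371A and -0.10 in S55A; difference called, edgeR adjusted p = 3.53e-07), and TNFAIP3, a brake on NF-kB, was at 1.29 in S371A and 0.24 in S55A.

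Genes of the matrix, integrins and YAP targets had 18 of 34 tested members higher and 1 lower (beside 11.7% and 9.43% of all tested genes). The median was 0.41. The 1 that fell was VIM (-2.26 in S371A and -0.11 in S55A). The call of VIM was lost on FPKM, where the change was -0.049 with a pseudocount of 1 and -0.339 with 0.1, and when any 1 of 8 libraries was left out, all but S371A replicate 3, WT-1 replicate 3, S55A replicate 2 and WT-2 replicate 2. PLAUR, the urokinase receptor, stood at 31.2, 39.7 and 35.1 CPM in S371A, against 12.1, 12.8 and 12.2 CPM in WT-1. In experiment 2 PLAUR stood at 11.1, 13.9 and 11.8 CPM in S55A, against 7.12, 5.25 and 5.32 CPM in WT-2. It rose in both experiments without overlap (1.28 ± 0.10; 1.51 in S371A and 1.05 in S55A; edgeR test of both mutants, adjusted p = 0.00498). CD44, the hyaluronan receptor, rose by 0.72 ± 0.08 (0.89 in S371A and 0.56 in S55A), CYR61, a YAP target, by 1.03 ± 0.12 (1.5 in S371A and 0.57 in S55A) and THBS1, thrombospondin, by 1.05 ± 0.08 (0.51 in S371A and 1.58 in S55A).

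Stress genes rose in part. Of 34 tested genes of ATF4 and the integrated stress response 14 rose and 3 fell (41.2% and 8.82%, beside 11.7% and 9.43% of all tested genes). The falls were near the share of all genes. By the test of both mutants 3 were higher, PPP1R15A, DDIT4 and SLC7A1. DDIT4, an inhibitor of mTOR signalling, rose by 0.45 ± 0.05 (0.35 in S371A and 0.56 in S55A) and has many exonic bases opposite an antisense gene. GDF15, a stress cytokine, rose by 0.52 ± 0.05 (0.77 in S371A and 0.28 in S55A), and ADM2 by 0.43 ± 0.03, nearly all of it in S55A (0.10 in S371A and 0.76 in S55A). ATF4 itself was at 0.06 ± 0.04 and was not called (edgeR adjusted p = 0.309), though its transcript shares sequence with pseudogenes. The count of falls in this list was 1 when any of S371A replicate 1, WT-1 replicate 1 or 3, S55A replicate 3 or WT-2 replicate 1 was left out.

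Of 31 genes of the unfolded protein response 14 rose and 5 fell. SEC24D, a cargo adaptor of the vesicles that leave the endoplasmic reticulum, stood at 175, 188 and 171 CPM in S371A, against 125, 116 and 118 CPM in WT-1. In experiment 2 SEC24D stood at 186, 195 and 198 CPM in S55A, against 134, 121 and 136 CPM in WT-2. Both pairs of groups were at nearly the same levels, and the average rise was 0.57 ± 0.04 (0.57 in S371A and 0.56 in S55A; edgeR test of both mutants, adjusted p = 0.00109). DNAJB9, a target of IRE1, rose by 0.46 ± 0.04 (0.34 in S371A and 0.59 in S55A) and EDEM1, which sends misfolded glycoproteins to degradation, by 0.26 ± 0.03 (0.27 in S371A and 0.24 in S55A). The members that fell, HSP90B1, PDIA4, CALR, CANX and CRELD2, are chaperones and folding factors of the endoplasmic reticulum. Singly, 6 members fell in S371A and 1 in S55A (beside 4.73% and 10.1% of all tested genes). By the test of both mutants 0 fell. PDIA4 was at -0.49 in S371A and 0.01 in S55A, a called difference (edgeR adjusted p = 0.000595). The difference was also called for CALR (-0.34 in S371A and 0.09 in S55A) and CANX (-0.27 in S371A and 0.09 in S55A). HSP90B1 was at -0.35 in S371A and -0.12 in S55A, and CRELD2 at -0.37 in S371A and -0.23 in S55A. The count of falls in the average effect was 3 or 4 with any 1 library left out.

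Of 23 heat shock genes 7 rose and 3 fell (5 with upper quartile factors) in the average effect. Singly, 9 rose and 1 fell in S371A (beside 6.48% and 4.73% of all tested genes). In S55A 3 rose and 7 fell (beside 11.5% and 10.1%), and the mutant effects differed for 10 (beside 12.5%). The list sum was 11544 to 11589 CPM in S371A, against 11192 to 11381 CPM in WT-1. It was lower in S55A, at 10088 to 10821 against 12091 to 12366 CPM in WT-2. DNAJB1, the partner of HSP70, stood at 184, 233 and 244 CPM in S371A, against 127, 157 and 147 CPM in WT-1. In experiment 2 DNAJB1 stood at 184, 185 and 155 CPM in S55A, against 111, 102 and 103 CPM in WT-2. The lowest mutant library was above the highest wild type in both, and the rise was 0.67 ± 0.08 (0.62 in S371A and 0.72 in S55A; edgeR test of both mutants, adjusted p = 0.0203). BAG3, which hands clients of HSP70 to autophagy, rose by 0.52 ± 0.05 (0.57 in S371A and 0.47 in S55A). HSPA1B, an inducible HSP70, rose by 0.47 ± 0.06 (0.57 in S371A and 0.37 in S55A), but the near copies HSPA1A and HSPA1B can trade reads.

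For NRF2 targets the counts were 11 higher and 4 lower of 31, and the median of the list, -0.02, changed sign between alternatives. HMOX1, heme oxygenase, rose by 0.81 ± 0.08 (1.07 in S371A and 0.54 in S55A) and was the list's only call in both mutants. SRXN1, sulfiredoxin, was at 0.78 in S371A and 0.24 in S55A and GCLM, a subunit of the enzyme that starts glutathione synthesis, at 0.66 in S371A and 0.12 in S55A. ABCC2, an export pump, changed by -0.80 on average, with opposite signs in the mutants (0.16 in S371A and -1.76 in S55A). The NRF2 list had 2 falls without WT-1 replicate 3, WT-2 replicate 1 or WT-2 replicate 3. Of 28 hypoxia genes 7 rose and 0 fell. BHLHE40, a repressor of the clock and of hypoxia, rose by 0.66 ± 0.05 (0.41 in S371A and 0.91 in S55A), KDM4B, a histone demethylase, by 0.47 ± 0.05 (0.38 in S371A and 0.56 in S55A), and ANGPTL4, an inhibitor of lipoprotein lipase, by 1.43 ± 0.22 at 4.4 CPM or less in every library.

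Of the enzymes around PHGDH few were called. Of 24 tested genes of serine, glycine and one-carbon metabolism other than PHGDH, 0 rose and 3 fell, in a list with a median of -0.05. MAT2A, which makes the methyl donor S-adenosylmethionine, stood at 155, 166 and 147 CPM in S371A, against 177, 199.6 and 198 CPM in WT-1. In experiment 2 MAT2A stood at 115, 119 and 116 CPM in S55A, against 181, 171 and 178 CPM in WT-2. It was the only one of the 3 lower by the test of both mutants (-0.45 ± 0.04; -0.30 in S371A and -0.60 in S55A), and a part of its exons lies opposite another gene. GCSH, of the glycine cleavage system, changed by -0.44 ± 0.11, with reads that pseudogenes could share, and AHCY, which clears S-adenosylhomocysteine, by -0.19 ± 0.05, a call lost without WT-2 replicate 3. PSAT1, the enzyme after PHGDH, was at -0.07 ± 0.04 and not called (edgeR adjusted p = 0.23). Without WT-2 replicate 1 the list had 5 falls.

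Among 23 genes of malate and NAD metabolism 5 rose and 2 fell (21.7% and 8.7%, beside 11.7% and 9.43% of all tested genes). The falls were near the share of all genes. The list had 3 rises without S55A replicate 2 or WT-2 replicate 3 and 4 falls with upper quartile factors. ME1, the cytosolic malic enzyme, rose by 0.27 ± 0.03 (0.20 in S371A and 0.33 in S55A), and NNT, which turns NADH into NADPH in mitochondria, by 0.22 ± 0.05 (0.17 in S371A and 0.27 in S55A). ME2, the mitochondrial malic enzyme, was at -0.55 in S371A and -0.08 in S55A. NMNAT2, which makes NAD in the cytosol, was at 0.06 in S371A and 2.30 in S55A. Of 17 members of the PARP family, which use NAD to modify proteins, 7 rose and 0 fell. TIPARP rose by 0.59 ± 0.06 (0.62 in S371A and 0.55 in S55A), TNKS2, a tankyrase, by 0.22 ± 0.03 (0.18 in S371A and 0.26 in S55A) and PARP14, itself an interferon-response gene, by 0.38 ± 0.05 (0.47 in S371A and 0.29 in S55A). PARP1 was at -0.14 ± 0.05 and was not called (edgeR adjusted p = 0.0592), though it was called lower with upper quartile factors, on FPKM and without S55A replicate 2.

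In glycolysis and glucose transport 7 of 25 rose and 1 fell. HK2, hexokinase, stood at 163, 153 and 163 CPM in S371A, against 136, 129 and 124 CPM in WT-1. In experiment 2 HK2 stood at 198, 195 and 171 CPM in S55A, against 118, 121 and 127 CPM in WT-2. It was the one member called in both mutants (0.46 ± 0.05; 0.30 in S371A and 0.62 in S55A). SLC16A3, the lactate exporter, was at -0.33 in S371A and 1.53 in S55A, with opposite signs. Of 24 amino acid transporters 7 rose and 4 fell, with 2 falls without S371A replicate 3 or WT-1 replicate 3. SLC1A1, a glutamate and aspartate importer, rose by 0.67 ± 0.07 (0.72 in S371A and 0.62 in S55A) and SLC7A1, an arginine importer, by 0.21 ± 0.03 (0.20 in S371A and 0.22 in S55A).

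Genes of lipid synthesis and the respiratory chain that were called had fallen. Of 34 genes of cholesterol and fatty acid synthesis 0 rose and 6 fell, with a median of -0.07. They include STARD4, a sterol carrier, at -0.23 ± 0.04 (-0.12 in S371A and -0.34 in S55A), and IDI1, of the mevalonate pathway, at -0.25 ± 0.04 (-0.06 in S371A and -0.45 in S55A). Of 49 respiratory chain genes 0 rose and 5 fell, a share near the 9.43% of all genes. The number of falls was 3 without WT-1 replicate 2, 8 with upper quartile factors and 9 on FPKM. COX7B, of cytochrome oxidase, changed by -0.35 ± 0.08.

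Some of the cytosolic ribosomal protein genes fell, by small amounts. Of 78 tested members 0 rose, 21 fell (26.9%, against 9.43% of all genes) and 57 were not called, and 0 passed the test of both mutants. Of the 78, 13 had a positive average change. The list had a median of -0.11, which was -0.17 in S371A and -0.05 in S55A. RPL5, of the particle that restrains MDM2, stood at 596, 581 and 589 CPM in S371A, against 727, 754 and 724 CPM in WT-1. In experiment 2 RPL5 stood at 725, 724 and 687 CPM in S55A, against 788, 788 and 793 CPM in WT-2. Mutant libraries were lower without overlap in both, and the average change was -0.24 ± 0.03 (edgeR adjusted p = 0.000145). RPL22 changed by -0.29 ± 0.04 (-0.40 in S371A and -0.17 in S55A) and RPL23 by -0.33 ± 0.06 (-0.39 in S371A and -0.27 in S55A). Ribosomal protein genes have many processed pseudogenes, so part of their reads is uncertain. The list summed to 24142 to 26388 CPM in S371A, against 27826 to 28776 CPM in WT-1, and to 38553 to 40058 CPM in S55A, against 40013 to 40964 CPM in WT-2. The sums of S55A and WT-2 overlapped.

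Of 40 ribosome biogenesis genes 0 rose and 8 fell in the average effect, a count of 4 or 5 without S371A replicate 1, WT-1 replicate 3, S55A replicate 1 or WT-2 replicate 1. Singly, 2 fell in S371A and 16 in S55A (beside 4.73% and 10.1% of all tested genes), and 1 rose in S371A. The median was -0.01 in S371A and -0.13 in S55A, and the mutant effects differed for 9 (beside 12.5%). The list sums of S371A (7053 to 7559 CPM) and WT-1 (7300 to 7332 CPM) overlapped. Those of S55A (7226 to 7598 CPM) lay below WT-2 (8423 to 8707 CPM). NPM1, nucleophosmin of the nucleolus, stood at 936, 916 and 1047 CPM in S371A, against 1216, 1254 and 1211 CPM in WT-1. In experiment 2 NPM1 stood at 1043, 1095 and 1201 CPM in S55A, against 1598, 1503 and 1582 CPM in WT-2. It fell in both mutants (-0.42 ± 0.05; -0.35 in S371A and -0.49 in S55A; edgeR test of both mutants, adjusted p = 0.0204), with pseudogenes that could share its reads. FBL, fibrillarin, changed by -0.36 ± 0.06 (-0.26 in S371A and -0.47 in S55A). Of 20 tRNA synthetase genes 1 rose (2 without WT-1 replicate 1, S55A replicate 3 or WT-2 replicate 3) and 1 fell (2 without S55A replicate 2 or WT-2 replicate 1), and the median of that list, 0.01, changed sign between alternatives.

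For cell cycle genes the mutant effects differed often. Of 58 genes of DNA replication and S phase 0 rose and 19 fell in the average effect, with a median of -0.17. In the single tests 5 were higher in S371A, where the median was 0.06, and 38 were lower in S55A (beside 10.1% of all tested genes), where it was -0.42. The mutant effects differed for 30 of the 58 (beside 12.5% of all tested genes). POLE, the leading strand polymerase, was at -0.01 in S371A and -0.48 in S55A (difference called, edgeR adjusted p = 0.00171). PRIM1, the primase subunit, was at -0.14 in S371A and -0.64 in S55A and RFC4, of the clamp loader, at -0.09 in S371A and -0.68 in S55A.

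G2/M and mitosis genes had 6 of 52 members higher and 6 lower on average (11.5% each, beside 11.7% and 9.43% of all tested genes). Both shares were near those of all genes, and the median of 0.01 changed sign between alternatives. In the single tests 18 were higher in S371A (beside 6.48% of all tested genes) and 18 were lower in S55A (beside 10.1%), and the effects differed for 32 (beside 12.5%). CENPE, the kinetochore motor, was at 0.67 in S371A and -1.94 in S55A and KIF20B, a kinesin of cytokinesis, at 0.39 in S371A and -1.47 in S55A. INCENP, of the chromosomal passenger complex, was among those that rose (0.25 ± 0.05; 0.31 in S371A and 0.20 in S55A). Large centrosome and cilium scaffolds had 2 of 35 members higher and 11 lower on average, and the mutant effects differed for 21 (beside 12.5%). Singly, 6 were higher and 0 lower in S371A (beside 6.48% and 4.73%), where the median was 0.12. In S55A 0 were higher and 16 lower (beside 11.5% and 10.1%), and the median was -0.24. CEP290 was at 0.24 in S371A and -1.60 in S55A and NIN, which anchors microtubules, at -0.15 in S371A and -0.57 in S55A.

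Most replication-dependent histone genes rose in the average effect, from low levels. Of 12 tested 8 rose and 0 fell. Singly, 4 rose in S371A and 8 in S55A (beside 6.48% and 11.5% of all tested genes), and 0 passed the test of both mutants. The list had a median of 0.87 (0.71 in S371A and 0.91 in S55A), which was 0.27 on log2(FPKM + 1). HIST1H1C, a linker histone, stood at 4.61, 4.42 and 3.13 CPM in S371A, against 1.56, 1.83 and 0.696 CPM in WT-1. In experiment 2 HIST1H1C stood at 3.37, 3.40 and 4.65 CPM in S55A, against 1.61, 2.44 and 2.12 CPM in WT-2. Its libraries did not overlap, and the average rise was 1.24 ± 0.21 (edgeR adjusted p = 0.00166). HIST1H2BD rose by 0.87 ± 0.15 (0.50 in S371A and 1.24 in S55A). Histone genes are near copies of each other, and the level of 1 gene is uncertain for that reason.

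Of 20 cyclin-dependent kinases, partners and inhibitors 4 rose and 2 fell (20% and 10%, beside 11.7% and 9.43% of all tested genes), the falls being near the share of all genes. CDKN2D, an inhibitor of CDK4 and CDK6, rose by 0.54 ± 0.09 (0.38 in S371A and 0.70 in S55A) and RBL2, the pocket protein of resting cells, changed by -0.24 ± 0.04 (-0.26 in S371A and -0.21 in S55A). Among 27 p53 targets 3 rose and 8 fell (11.1% and 29.6%, beside the same shares), the rises being near the share of all genes. TP53INP1 changed by -0.57 ± 0.07 (-0.72 in S371A and -0.42 in S55A), TRIAP1 by -0.28 ± 0.05 (-0.34 in S371A and -0.23 in S55A), and SESN2, also a target of ATF4, rose by 0.40 ± 0.06 (0.25 in S371A and 0.54 in S55A). Without S371A replicate 1 or 3 or WT-1 replicate 1, 5 of the 27 fell.

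In S55A more epithelial genes were called than in S371A. Of 46 tested genes of epithelial junctions and differentiation 22 rose and 5 fell (47.8% and 10.9%, beside 11.7% and 9.43% of all tested genes). The falls were near the share of all genes. The list had a median of 0.22, which was 0.02 in S371A and 0.46 in S55A. Singly, 4 rose in S371A and 26 in S55A (beside 6.48% and 11.5% of all tested genes). The mutant effects differed for 22 of the 46 (beside 12.5%). TJP1, the tight junction scaffold ZO-1, stood at 350.4, 340.0 and 343 CPM in S371A, against 297, 307 and 306 CPM in WT-1. In experiment 2 TJP1 stood at 323, 316 and 308 CPM in S55A, against 246, 246 and 253 CPM in WT-2. The count of falls was 3 without S371A replicate 1 or 2, WT-1 replicate 2 or WT-2 replicate 1 or 3. TJP1 was one of 2 members higher by the test of both mutants (0.27 ± 0.03; 0.18 in S371A and 0.35 in S55A), with DSP, desmoplakin, at 0.31 ± 0.04 (0.31 in S371A and 0.31 in S55A). OVOL1, an epithelial transcription factor, was at 0.43 in S371A and 1.59 in S55A and CLDN2, a pore-forming claudin, at -0.03 in S371A and -1.86 in S55A. Of 13 keratins 6 rose and 2 fell. KRT18, the simple epithelial keratin, stood at 1479, 1418 and 1505 CPM in S371A, against 1060, 1090 and 1054 CPM in WT-1. In experiment 2 KRT18 stood at 1105, 1026 and 965 CPM in S55A, against 741, 669 and 786 CPM in WT-2. It rose in both without overlap (0.48 ± 0.05; 0.46 in S371A and 0.50 in S55A), with processed pseudogenes that could share its reads, whereas KRT20, a keratin of intestinal epithelium, had opposite signs (-0.38 in S371A and 2.95 in S55A).

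Of 32 genes of the BCL2 family and apoptosis 9 rose and 2 fell. BCL2L1, which encodes the survival protein BCL-XL, rose in both mutants (0.28 ± 0.04; 0.27 in S371A and 0.30 in S55A), with a large part of its exons opposite another gene, and APAF1, the scaffold of the apoptosome, rose by 0.47 ± 0.07 (0.55 in S371A and 0.39 in S55A). BCL2 was at -0.20 in S371A and -1.47 in S55A. Of 40 autophagy and lysosome genes 8 rose and 3 fell (20% and 7.5%, beside 11.7% and 9.43% of all tested genes), the falls being near the share of all genes. MAP1LC3B, which coats autophagosomes, rose by 0.28 ± 0.04 (0.25 in S371A and 0.30 in S55A), ULK1, the starting kinase, by 0.20 ± 0.04 (0.14 in S371A and 0.26 in S55A), and RRAGD, a nutrient-sensing GTPase, changed by -0.45 ± 0.08 (-0.45 in S371A and -0.44 in S55A). The count of 8 was 5 without WT-1 replicate 1.

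**Figure D5:**
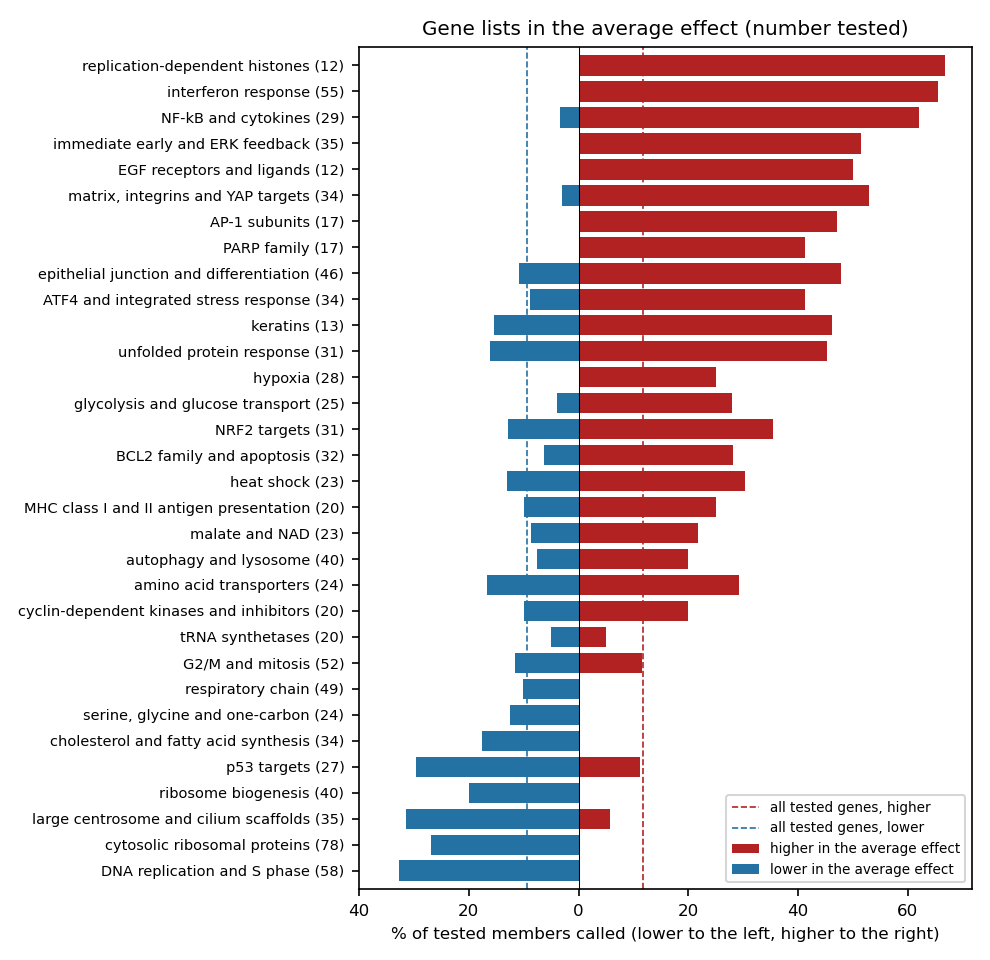
Percent of the tested members of each of the 32 gene lists that rose (red, to the right) or fell (blue, to the left) in the average effect, with the shares of all tested genes, 11.7% and 9.43%, as dashed lines. Histone, interferon and NF-kB genes reach furthest right, and S phase, centrosome, p53 and ribosomal protein genes furthest left.

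Where a list above had 0 calls in a direction in edgeR, the number of members at an unadjusted p under 0.05 in that direction was 3 for falls of hypoxia genes, 2 for rises of ribosome biogenesis genes, 1 each for falls of interferon, immediate early, PARP and EGF genes and for rises of cholesterol genes, and 0 for the others. DESeq2 called 1 of them in the hypoxia list and 1 in the cholesterol list, and limma-voom called 0.

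Of 18 tested ductal carcinoma markers 6 rose and 2, SOX9 and LGALS4, fell (33.3% and 11.1%, beside 11.7% and 9.43% of all tested genes). Markers of other cell types were few. None of the 3 tested leukocyte markers was called by edgeR, DESeq2 or limma-voom, and 0 had an unadjusted p under 0.05 in edgeR. Of 5 tested fibroblast markers PDGFRB fell and 0 rose, but 4 had a positive average change. Their median was 0.41 (-0.33 in S371A and 1.14 in S55A). All 13 listed markers together summed to 11.1 to 14 CPM in S371A, against 22.8 to 25.5 CPM in WT-1, and to 16.6 to 32.4 CPM in S55A, against 10.2 to 20.8 CPM in WT-2. PDGFRB made up the largest part, with a mean of 10.1 CPM in S371A, 21.2 in WT-1, 11.9 in S55A and 12.5 in WT-2. COL1A1, COL1A2, COL3A1 and DCN had higher means in S55A than in WT-2. Of 5 tested acinar and endocrine markers BHLHA15 and PDX1 rose and PRSS1 fell, with INS, GCG, PNLIP and PTF1A at 0 in every library. Of 4 tested hepatocyte markers SERPINA1 rose, with APOB and TTR at 0. The 2 tested endothelial markers, FLT1 and ESAM, were not called by edgeR, DESeq2 or limma-voom, 1 of them had an unadjusted p under 0.05 in edgeR, and KDR and TIE1 were at 0. Any part of such cells in the changes above was not tested. PHGDH was lower in the same mutant libraries as every change above, and the part that less PHGDH transcript has in them cannot be told apart from that of the substitutions.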

How the data were processed

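RNA-seq of 12 SW1990 libraries in 4 groups of 3 was used. The authors deposited, for each experiment, a table with a read count and an FPKM value (fragments scaled to transcript length and depth) per gene and library, with no further normalisation of the counts seen in the values. Per the submitters' processing notes, CASAVA, HISAT2 2.0.4, StringTie 1.3.0 and edgeR were used, and the builds GRCh38 and mm10 are listed; how genes were counted, and whether strand was used, is not given in the sources used here. One label speaks of a microarray, but the deposited values are counts and FPKM. Recomputing FPKM within a library from the deposited counts deviated by at most 1.9e-05 in proportion.

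The tables were joined by gene identifier (50356 genes in both, 97.4% with the same coordinates, at least 99.892% of the counts of a library). Genes passing filterByExpr (16666) were scaled by TMM and fitted with edgeR 4.0.16 (robust quasi-likelihood, R 4.3.3) with 1 mean per group, and p-values were adjusted by Benjamini-Hochberg over all tested genes. The biological coefficient of variation was 13.85%. SE values are the absolute log2 fold change divided by the square root of F. No 2 libraries were identical or agreed within sampling noise. Alternatives used DESeq2 1.42.0, limma 3.58.1 (voom, or log2(FPKM + 1) and log2(FPKM + 0.1)), other scalings and filters, and left out each library.

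Named were PHGDH, the 12 largest rises and falls among called genes that averaged 5 CPM or more and whose mutant and wild-type libraries did not overlap in either experiment, up to 4 called members with the smallest p per gene list with at least 3 called members, others only as examples of a list's count, and the 6 genes per direction with the smallest larger p. The members and the gene lists were chosen with earlier results of these data known. On simulated data with 16461 genes, 16261 were left unchanged. Of genes changed by a log2 of 1 in both mutants, 94% were called in the average effect and 84% in both. Of genes changed in 1 mutant only, 0% were called in both. In the average effect, however, 80.8% of genes changed by a log2 of 1 in S371A only and 70.8% in S55A only were called. A call in the average effect thus does not tell a shared change from that of 1 mutant. Sequence shared with other gene models and exons opposite another gene were counted on GENCODE transcripts, and genes with at least 10% of either are uncertain. They are marked where named, and PRIM1 and SRXN1 (shared sequence) and CCDC18, CLDN2, HLA-B, ICAM2, IDI1, IRF1, OVOL1, RBL2 and VIM (opposite exons) are uncertain in the same way. Values of some members of the lists are not reported here.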

Additional observations from a re-analysis of the deposited data

Results flagged for a closer look

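The mutant effects were found to differ for 53 of the genes given with values here, by the edgeR test of the difference itself. Each difference below is the log2 fold change of S371A minus that of S55A, and its adjusted p was 0.0457 or less. Each mutant belongs to 1 experiment, so the mutant and the experiment cannot be told apart. The effect had the same sign and was larger in S371A for CYR61 (0.93), DDX58 (1.35), DDX60 (1.57), EGFR (0.76), GCLM (0.54), GDF15 (0.49), HMOX1 (0.53), IFIH1 (0.91), IFIT1 (1.82), IFIT2 (2.05), IFIT3 (1.90), ISG15 (1.64), JUN (0.72), ME2 (-0.47), OASL (1.82), OLR1 (1.74), RSAD2 (2.32), SRXN1 (0.54), TM4SF1 (1.04), TNFAIP3 (1.05) and ZFP36 (0.54). The effect had the same sign and was larger in S55A for ADM2 (-0.66), ALPP (1.65), BCL2 (1.28), BHLHE40 (-0.50), CD74 (-1.45), CLDN2 (1.83), CLIC5 (-1.47), DNAJB9 (-0.25), HK2 (-0.33), HLA-B (-0.65), IDI1 (0.39), IGF2 (0.98), KLF10 (-0.35), LURAP1L (-1.36), MAT2A (0.31), NIN (0.42), NMNAT2 (-2.25), OVOL1 (-1.15), POLE (0.47), PRIM1 (0.50), RFC4 (0.59) and THBS1 (-1.07). The signs were opposite for ABCC2 (1.92), CCDC18 (1.26), CENPE (2.61), CEP290 (1.84), KIF20B (1.86), KRT20 (-3.34), NOS2 (2.14), PDIA4 (-0.50), SLC16A3 (-1.86) and SOD2 (0.47). All 6 interferon genes among the largest rises are in the first set.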

How the results depend on the processing

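Of 23 alternatives, 11 left out no library. The edgeR fit called 3516 genes in the average effect and 253 in both mutants, and these totals were 3029 to 3606 and 170 to 392 under the 10 of them other than the block. DESeq2 called 392 genes in both mutants (281 higher, 111 lower). On FPKM, 112 genes were higher in both with a pseudocount of 1 and 112 with 0.1. With upper quartile factors 46.2% of the calls were higher, against 55.3% with TMM, and the median over all genes was -0.030. Leaving out 1 library gave 2814 to 3729 genes called in the average effect (1569 to 1974 higher, 1245 to 1755 lower), 578 to 1053 of them with differing mutant effects, and 108 to 290 called in both mutants (78 to 205 higher, 30 to 85 lower). The count in both mutants was 164, 128 and 108 without S371A replicate 1, 2 and 3, 130, 116 and 112 without WT-1 replicate 1, 2 and 3, 158 and 144 without S55A replicate 1 and 2, and 125 and 134 without WT-2 replicate 1 and 3. The number with differing effects was 598 and 578 without WT-1 replicate 1 and 3. Fewer libraries leave fewer degrees of freedom.

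Replicate numbers did not pair the samples: deviations of same-numbered mutant and wild-type libraries correlated at -0.056 to 0.041. With the replicate block 2623 genes were called in the average effect, 479 of them with differing mutant effects, and 38 in both mutants (26 higher, 12 lower). Among the genes named with values, AHCY (edgeR adjusted p = 0.0751) and VIM (0.101) lost their call with the block, and the MHC list had 0 falls; the cause of these changes was not tested. In simulated data at this depth, 16261 of 16461 genes were left unchanged. A log2 change of 0.5 in both mutants was called in 72% of genes by the average and in 18% by the test of both. The data themselves had 3516 genes called in the average effect. Adjusted p-values depend on how many genes change, so how often small shared changes were missed in these data was not tested.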

Other observations

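Some falls came from neighbouring genes, a pattern noticed after the values were seen. On chromosome 19 (GRCh38, coordinates of the deposited tables) RASIP1 (48720587 to 48740721), IZUMO1 (48740852 to 48746909) and FUT1 (48748011 to 48755390), all on the minus strand, are separated by 130 and 1101 bases. All 3 fell by the test of both mutants. FUT1, which makes the H antigen, changed by -0.43 ± 0.04 (-0.41 in S371A and -0.44 in S55A; edgeR adjusted p = 2.51e-05). Next to them MAMSTR was at -0.57 ± 0.19 and was not called (edgeR adjusted p = 0.0518), though it was called lower with upper quartile factors, on log2(FPKM + 0.1), with the filter of 1 CPM and without S55A replicate 3 or WT-2 replicate 2. Further along the same stretch, PLEKHA4 rose by 0.76 ± 0.06 (0.85 in S371A and 0.67 in S55A) beside PPP1R15A. On chromosome 11, SYT8, next to TNNI2, changed by -0.45 ± 0.08 (-0.63 in S371A and -0.26 in S55A), and ASCL2, near IGF2, by -0.42 ± 0.07 (-0.48 in S371A and -0.35 in S55A).

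Host transcripts of small nucleolar RNAs, also looked at after SNHG26 was seen to fall, had 9 of 21 tested members lower in edgeR (beside 9.43% of all tested genes). Their median average change was -0.30. Of the 21, 5 were lower by the test of both mutants (beside 0.396% of all tested genes). The family was picked through a member that fell, so its count is no independent evidence. DANCR, a host transcript outside that family of names, changed by -0.72 ± 0.09 (-0.72 in S371A and -0.71 in S55A; edgeR adjusted p = 0.000152), with some of its exonic bases opposite another gene.

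A pair of genes below the level set for naming changed more than those named, and were chosen after their values were seen. A2ML1, a protease inhibitor, stood at 0.419, 0.121 and 0.125 CPM in S371A, against 2.22, 1.16 and 1.61 CPM in WT-1. In experiment 2 A2ML1 stood at 1.6, 1.5 and 1.95 CPM in S55A, against 13.3, 11.3 and 11.9 CPM in WT-2. ICAM2, an adhesion molecule, stood at 1.54, 1.09 and 1.38 CPM in S371A, against 0.302, 0.245 and 0.428 CPM in WT-1. In experiment 2 ICAM2 stood at 2.28, 3.51 and 1.74 CPM in S55A, against 0.230, 0.148 and 0.121 CPM in WT-2. Their average changes were -2.88 ± 0.23 and 2.92 ± 0.27, and for neither did mutant and wild-type libraries overlap.

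The tables of the experiments did not count every gene alike. There were 10 tested genes that averaged 10 CPM or more in experiment 1 and were at 0 in all libraries of experiment 2, among them H19 (1599 to 2749 CPM in experiment 1). No fold change is given for them.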
